A study of Mus musculus with 6 samples.

Results

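The 9 genes described here encode the transcription factors and coactivators that set the number and the oxidative capacity of mitochondria. They are Esrra, Esrrg and Ppara (nuclear receptors), Ppargc1a and Ppargc1b (coactivators), Nrf1 and Gabpa (nuclear respiratory factors), and Tfam and Tfb2m (factors that work on mitochondrial DNA). They were taken by gene symbol, as 9 of the 54532 gene identifiers in the table, and the set was selected on the FPKM of these same 6 libraries, with the genotype difference already known. For that reason the genotype differences of the 9 genes are given as a description, with no test.

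RNA sequencing was performed on the brains of mice at postnatal day 15, with 3 Angptl2-/- and 3 Angptl2+/+ libraries, all of total brain cell types. Angptl2 encodes angiopoietin-like protein 2, a secreted glycoprotein. The Angptl2-/- line is on a C57BL/6 background and carries a deletion of exon 2 of Angptl2. The deletion arose in the male germ line of Angptl2 fl/fl mice, through Stra8-cre, and was passed on by breeding, so it is not restricted to a brain cell type. Neither how the brains were dissected nor whether each library came from a separate mouse is given in the sources used here, so the spread between libraries may be partly technical.

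Transcription of the mitochondrial respiratory chain and of the enzymes of fatty acid oxidation is known to be coordinated by a small network. PGC-1α and PGC-1β (Ppargc1a, Ppargc1b) have no DNA-binding domain and act by docking on factors that bind DNA: ERRα and ERRγ (Esrra, Esrrg), PPARα (Ppara), NRF1 and the ETS factor GABPA. These factors in turn activate Tfam and Tfb2m, whose proteins enter the mitochondrion, where TFAM packages and bends mitochondrial DNA and TFB2M opens promoters for the mitochondrial RNA polymerase. In the brain, PGC-1α is known for its high level in parvalbumin interneurons, fast-spiking inhibitory neurons with a high energy demand.

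The promoters of the genes are shown for the motifs of the network's own factors. RefSeq windows running from 250 bases before to 50 bases after each start site (GRCm38.p6) were held for 8 of the 9 genes, in 12 windows, because Esrrg has 4 annotated starts and Nrf1 has 2. Ppargc1b had no window. The core of the NRF1 motif (GCATGCGC, searched on both strands, reverse complement GCGCATGC) was found in the windows of Esrra, Ppara and Tfb2m, 3 of the 12, against 2.71% of all 32851 windows. The core of the GABPA motif (CCGGAAG, reverse complement CTTCCGG) was found in those of Gabpa and Tfam, 2 of the 12, against 8.86% of all windows. The core of the ERR motif (AAGGTCA, reverse complement TGACCTT) was found in 0 of the 12, against 4.72% of all windows. The motifs were chosen after the letters had been seen, and a match is a string of letters and not a measured binding site. The 5 stretches of 30 bases below hold the matches, in capitals, each written 5′ to 3′ on the strand of its gene.
Esrra, chr19:6921824-6921853, minus strand: ccccctgttttGCATGCGCaggccggcccc
Ppara, chr15:85735734-85735763, plus strand: ggggctcggtgGCGCATGCGCgcggactag
Tfb2m, chr1:179546245-179546274, minus strand: ctaggtcgttcGCATGCGCcattcgtaatg
Gabpa, chr16:84835020-84835049, plus strand: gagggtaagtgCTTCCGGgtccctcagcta
Tfam, chr10:71238073-71238102, minus strand: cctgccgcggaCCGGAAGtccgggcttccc
The Esrra match begins 34 bases before the start site, the Gabpa match 93 bases before it and the Tfam match 47 bases before it. In Ppara, matches on both strands overlap in a palindrome at 31 and 29 bases before the start. The Tfb2m match lies inside the transcript, from base 14 after the start.

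Each library held 17127276 to 18928921 fragments assigned to genes, as recovered from the FPKM values (fragments per kilobase of exon, scaled to the depth of the library). All 9 genes passed the filter of a mean FPKM of at least 0.5, as did 14862 genes in all. With limma and Benjamini-Hochberg adjustment, 0 of these 14862 genes (0%) passed an adjusted p of 0.05, and the smallest adjusted p was 0.273. In Angptl2-/- brains, 1355 genes were lower (9.12%) and 1054 were higher (7.09%) by an unadjusted p under 0.05, and limma's voom on the recovered fragments gave 1224 lower and 1151 higher, also with 0 past the adjusted threshold. Quantile normalization turned the balance, with 1150 lower and 1325 higher, again with 0 past the adjusted threshold. The FPKM of Angptl2 itself was 0.166, 0.320 and 0.126 in Angptl2-/- replicates 1 to 3, against 0.660, 0.958 and 0.291 in Angptl2+/+ replicates 1 to 3, below the filter in the mean. The targeted gene was thus weakly detected in all 6 libraries and overlapped between the genotypes, since Angptl2-/- replicate 2 was above Angptl2+/+ replicate 3.

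Of the 9 genes, Esrra stood apart. Its FPKM in every Angptl2-/- brain was below that in every Angptl2+/+ brain, whereas the values of the other 8 genes overlapped between the genotypes. Across all genes tested, 11.8% had all Angptl2-/- libraries below all Angptl2+/+ libraries and 10.7% had them all above, and among the 9 genes these counts were 1 and 0. The log2 fold change, on the scale of log2(FPKM + 0.1), was negative for 5 genes and positive for 4, with a median of -0.01 beside a median of 0.00 over all genes tested. The genes varied within a genotype about as much as any gene, with a median standard deviation of 0.213 on the log2 scale against 0.212 over all genes tested.

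**Figure D1:**
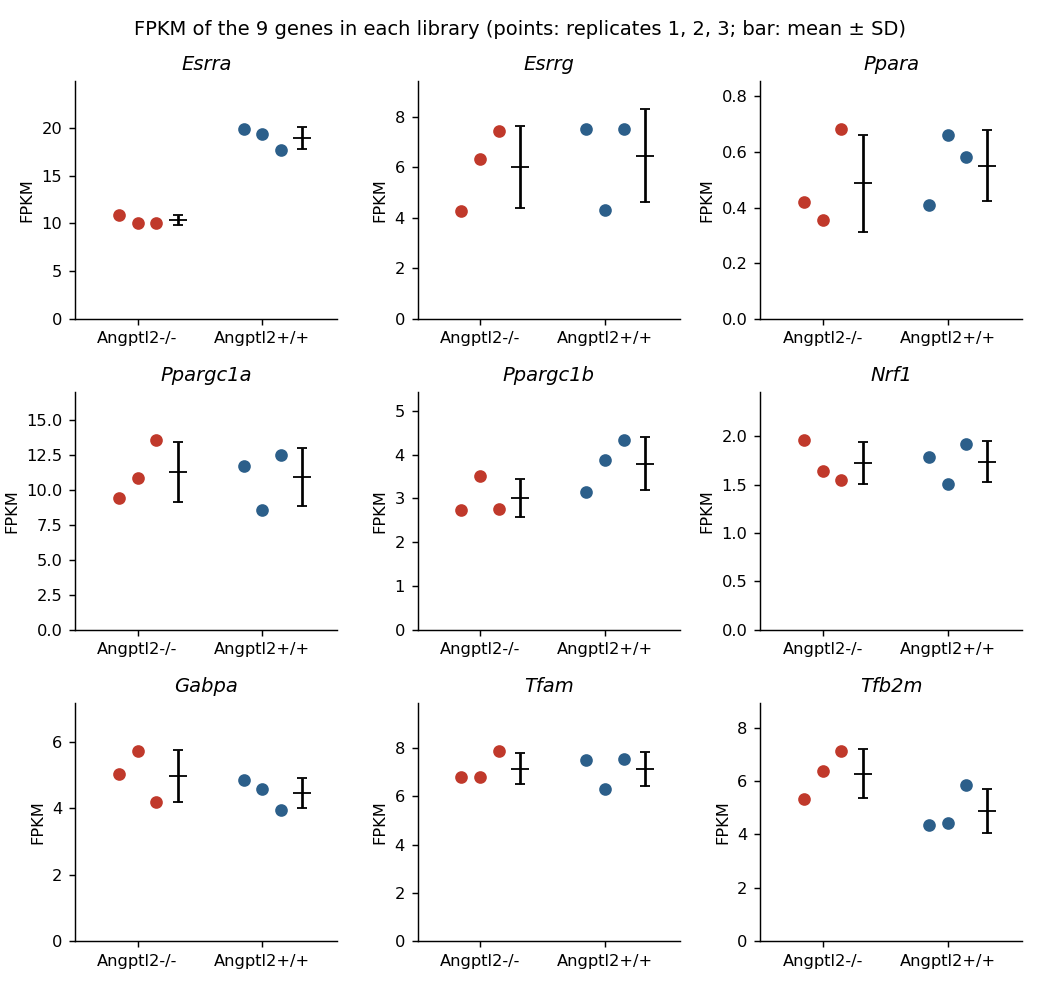
FPKM (vertical axis, from 0) of each of the 9 genes in the 3 Angptl2-/- libraries (red, left) and the 3 Angptl2+/+ libraries (blue, right); points are replicates 1, 2 and 3 and the bar is the mean ± SD. Esrra lies between 10.1 and 10.9 in Angptl2-/- brains and between 17.7 and 19.95 in Angptl2+/+ brains, and the points of the other genes overlap between the genotypes.

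Esrra encodes ERRα, an orphan nuclear receptor that binds the promoters of genes for oxidative phosphorylation, the tricarboxylic acid (TCA) cycle and fatty acid oxidation, and that depends on PGC-1 coactivators for its activity. The gene (ENSMUSG00000024955) lies at chr19:6910977-6921813 on the minus strand (GRCm38). Esrra FPKM was 10.9, 10.1 and 10.1 in Angptl2-/- replicates 1 to 3, against 19.95, 19.3 and 17.7 in Angptl2+/+ replicates 1 to 3. The mean was 10.4 ± 0.498 in Angptl2-/- brains and 19.0 ± 1.17 in Angptl2+/+ brains (SD, n = 3 each), a ratio of 0.545, with a log2 fold change of -0.87 (SE 0.099). The libraries of each genotype lay close together, the highest being 1.09-fold above the lowest in Angptl2-/- brains and 1.13-fold in Angptl2+/+ brains. These values rest on 919, 745 and 724 fragments in Angptl2-/- replicates and 1562, 1507 and 1317 fragments in Angptl2+/+ replicates, and counting error alone gives a standard deviation of 0.045 of the 0.080 seen within genotypes on the log2 scale. Of all genes tested, 320 (2.15%) had a more negative log2 fold change than Esrra.

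Base composition moved with the genotype across the whole table. Among the 335 tested genes whose longest coding transcript is within 1 percentage point of the GC content of that of Esrra (61.8%), the median log2 fold change was -0.41, so that genes as rich in GC as Esrra were mostly lower in Angptl2-/- libraries. Genes poor in GC lay on the other side, with a median of 0.24 for the 1064 genes around the 42.5% of Tfb2m. After each library was corrected for GC content with a loess curve, the log2 fold change of Esrra was -0.47, still with the same sign. When the longest transcript of any type was used in its place, which for Esrra retains an intron and has a GC content of 50.3%, it was -0.83. The corrected value thus depends on which transcript stands for the gene, and the part of GC content in the Esrra difference was not tested further. The 250 bases before the start site of Esrra are given here as the longer context of the gene whose level differed most among the 9, with the NRF1 core in capitals.
Esrra upstream region, chr19:6921809-6922058, minus strand: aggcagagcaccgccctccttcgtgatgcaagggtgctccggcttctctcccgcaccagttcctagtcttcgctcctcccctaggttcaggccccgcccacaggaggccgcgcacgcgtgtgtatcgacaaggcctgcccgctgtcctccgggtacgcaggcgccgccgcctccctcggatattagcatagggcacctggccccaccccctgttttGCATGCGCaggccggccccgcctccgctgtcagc

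The genes around Esrra were lower too, but by less. Within 50 kb on either side there are 8 other genes that overlap the window, 7 of which were tested, and all 7 had a negative log2 fold change, between -0.54 for Gpr137 and -0.28 for Catsperz, with a median of -0.40. In 3 of the 7 all Angptl2-/- libraries were below all Angptl2+/+ libraries, as in 11.8% of all genes tested. After the GC correction the 7 lay between -0.21 and -0.05, with a median of -0.13, and Esrra at -0.47. The neighbour that touches Esrra is Trmt112, a cofactor of several methyltransferases, on the opposite strand, which shares 73 bases with the 3′ end of Esrra. Since the strand setting of the counting is not given, fragments from those bases cannot be told apart. Trmt112 had an FPKM of 9.60, 7.40 and 7.08 in Angptl2-/- replicates, against 12.2, 11.1 and 7.64 in Angptl2+/+ replicates, and its log2 fold change of -0.34 was smaller in size than that of Esrra.

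**Figure D2:**
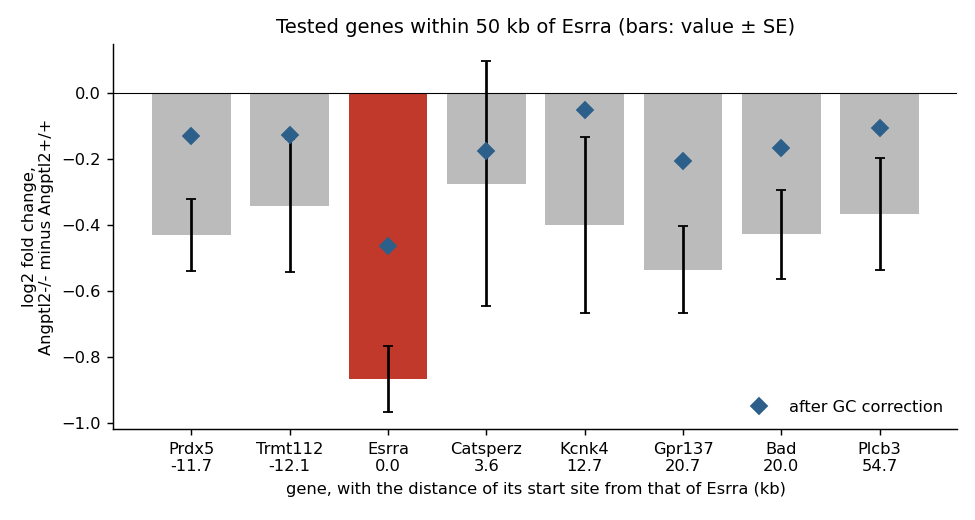
Log2 fold change, Angptl2-/- minus Angptl2+/+ (vertical axis), of Esrra (red) and the 7 tested genes that overlap a window of 50 kb on either side (grey), with the distance of each start site from that of Esrra in kb on the horizontal axis; bars are the value ± SE and diamonds the value after GC correction. Esrra is at -0.87 and its neighbours between -0.54 and -0.28; after the correction Esrra is at -0.47 and they lie between -0.21 and -0.05.

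The libraries differed in more than genotype. By Xist and Ddx3y, genes expressed from the inactive X chromosome and the Y chromosome, 1 Angptl2-/- and 2 Angptl2+/+ libraries are female, and 2 Angptl2-/- and 1 Angptl2+/+ libraries are male. The Esrra FPKM was 10.1 in the female Angptl2-/- library, against 19.95 and 19.3 in the female Angptl2+/+ libraries. It was 10.9 and 10.1 in the male Angptl2-/- libraries, against 17.7 in the male Angptl2+/+ library. Since the libraries were separated by genotype in Esrra, any split of them has this direction. The part of sex in the Esrra difference was not tested.

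Regional markers also differed between libraries. The 5 cerebellar markers summed to 9.55 to 11.4 FPKM in Angptl2-/- brains, against 74.3, 10.4 and 8.71 in Angptl2+/+ replicates 1 to 3. Angptl2+/+ replicate 1 alone held Cbln3 (10.9), Pcp2 (6.16) and Gabra6 (10.5), which were at 0 to 0.276 FPKM in the other 5 libraries. The 6 striatal markers summed to 75.9, 132 and 165 FPKM in Angptl2-/- replicates, against 34.5, 89.7 and 61.7 in Angptl2+/+ replicates, with Angptl2+/+ replicate 1 lowest and replicate 2 inside the range of Angptl2-/- brains. Without Angptl2+/+ replicate 1, the log2 fold change of Esrra was -0.83.

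Among cell types, the 3 parvalbumin interneuron markers (Pvalb, Syt2 and Cox6a2) were each lower in every Angptl2-/- library, with a sum of 14.5 to 19.6 FPKM in Angptl2-/- brains, against 70.3, 27.7 and 47.0 in Angptl2+/+ replicates 1 to 3. The highest of these sums belongs to the library with the cerebellar markers. The 5 endothelial markers summed to 55.1 to 62.9 FPKM in Angptl2-/- brains and 71.8 to 74.8 in Angptl2+/+ brains, but only Cldn5 was separated (20.002 to 30.4 against 33.7 to 44.4) and the other 4 overlapped. The 4 red blood cell markers summed to 115 to 257 FPKM in Angptl2-/- brains and 275 to 472 in Angptl2+/+ brains, with 2 of the 4 separated. The 6 choroid plexus markers summed to 104 to 937 against 1.64 to 7.39, nearly all of it Ttr (99.6 to 916 against 0.580 to 4.29), and 5 of the 6 were separated. The sums of the 5 markers each of neurons (735 to 854 against 755 to 919), astrocytes (155 to 169 against 146 to 203), oligodendrocytes (390 to 799 against 579 to 1202) and microglia (58.2 to 73.2 against 66.4 to 77.6) overlapped. Single markers were separated all the same. In neurons 2 were lower in Angptl2-/- brains and 1 higher, and in astrocytes 1 was lower and 1 higher. In oligodendrocytes 1 was lower (Mag, 29.6 to 37.5 against 38.6 to 92.8). In microglia 1 was higher (P2ry12, 16.7 to 18.6 against 11.5 to 14.1). In bulk tissue, fewer cells of a type and less RNA per cell cannot be told apart, and the part of these regions and cell types in the Esrra difference was not tested. Markers of other tissues were low and overlapped in sum. The 4 skeletal muscle markers summed to 4.70 to 5.90 FPKM in Angptl2-/- brains and 5.20 to 8.20 in Angptl2+/+ brains, most of it Acta1, with Ckm at 0 to 0.105 over the 6 libraries. The 2 brown fat markers summed to 0.891 to 1.48 against 0.882 to 2.60, most of it Cidea, with Ucp1 at 0 in 5 of the 6 libraries. The 3 liver markers summed to 0 to 0.777 against 0 to 0.123, with Alb at 0 in 5 of the 6 libraries.

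The related receptor genes overlapped between the genotypes. Esrrg encodes ERRγ, which binds the same DNA element as ERRα, is active without a ligand and is prominent in neurons with high metabolic demand. Esrrg (ENSMUSG00000026610, chr1:187608791-188214885, plus strand) had an FPKM of 4.26, 6.31 and 7.43 in Angptl2-/- replicates, against 7.53, 4.32 and 7.52 in Angptl2+/+ replicates. The lowest library of each genotype was at nearly the same level, and the mean in Angptl2-/- brains was 0.929 of the 6.46 ± 1.85 in Angptl2+/+ brains (SD, n = 3 each). The log2 fold change of -0.10 (SE 0.28) took the other sign in 3 of the 6 settings that leave out 1 library, and was -0.32 after GC correction. The standard deviation of Esrrg within genotypes was 0.43 on the log2 scale, against 0.080 for Esrra, and counting error gives only 0.057 of it. The third ERR gene, Esrrb, was at 0.190, 0.451 and 0.232 FPKM in Angptl2-/- brains and 0.778, 0.428 and 0.302 in Angptl2+/+ brains, below the filter.

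Ppara encodes PPARα, a receptor for fatty acids that drives fatty acid oxidation and ketogenesis, mainly in the liver. It was the lowest of the 9 genes in the brain. Ppara (ENSMUSG00000022383, chr15:85734983-85802819, plus strand) had an FPKM of 0.421, 0.355 and 0.684 in Angptl2-/- replicates, against 0.409, 0.660 and 0.584 in Angptl2+/+ replicates, from 23 to 43 and 28 to 45 fragments. The genotypes overlapped, and the log2 fold change was -0.17 (SE 0.38). At this depth counting error gives a standard deviation of 0.25 of the 0.36 within genotypes on the log2 scale. The difference seen was smaller in size than its SE, and how small a difference could be found was not tested.

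Among the coactivators, Ppargc1a encodes PGC-1α, the inducible partner of ERRα that responds to cold, fasting and exercise in other tissues. Ppargc1a (ENSMUSG00000029167, chr5:51454250-51567726, minus strand) had an FPKM of 9.42, 10.8 and 13.6 in Angptl2-/- replicates, against 11.7, 8.56 and 12.5 in Angptl2+/+ replicates. The values interleaved, with means of 11.3 ± 2.13 in Angptl2-/- brains and 10.9 ± 2.10 in Angptl2+/+ brains (SD, n = 3 each). The log2 fold change of 0.05 (SE 0.19) was negative in 4 of 20 other settings, including -0.19 after GC correction. Pvalb, the parvalbumin gene, is known to need PGC-1α for its full level in interneurons. Chosen after its values had been seen, Pvalb had an FPKM of 6.56, 11.3 and 10.2 in Angptl2-/- brains, against 45.2, 14.7 and 30.6 in Angptl2+/+ brains. Its log2 fold change was -1.57 (SE 0.40), with an adjusted p of 0.273 in limma. Its highest value, 45.2, is that of Angptl2+/+ replicate 1, the library with the cerebellar markers, and the other Angptl2+/+ libraries were still above all Angptl2-/- libraries. The part of the regional difference in the Pvalb values was not tested.

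Ppargc1b encodes PGC-1β, which shares the ERR-binding motifs of PGC-1α and maintains basal mitochondrial content. Ppargc1b (ENSMUSG00000033871, chr18:61298136-61400431, minus strand) had an FPKM of 2.74, 3.50 and 2.75 in Angptl2-/- replicates, against 3.15, 3.88 and 4.34 in Angptl2+/+ replicates. Only Angptl2-/- replicate 2 reached above the lowest Angptl2+/+ library. The means were 3.00 ± 0.436 in Angptl2-/- brains and 3.79 ± 0.603 in Angptl2+/+ brains (SD, n = 3 each), and the log2 fold change was -0.32 (SE 0.17). Its coding transcript is rich in GC (57.8%), the 1133 tested genes of like GC content had a median of -0.28, and after GC correction its log2 fold change was -0.04.

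The nuclear respiratory factors stayed close to the same level in both genotypes. Nrf1 (ENSMUSG00000058440, chr6:30047988-30153458, plus strand) encodes nuclear respiratory factor 1, which binds the palindromic motif shown above in promoters of respiratory chain genes. Its FPKM was 1.96, 1.64 and 1.55 in Angptl2-/- replicates, against 1.78, 1.51 and 1.92 in Angptl2+/+ replicates, with a log2 fold change of -0.01 (SE 0.17). Nrf1 took the other sign in 6 of 20 other settings. Gabpa (ENSMUSG00000008976, chr16:84834925-84863779, plus strand) encodes the DNA-binding subunit of nuclear respiratory factor 2. Its FPKM was 5.02, 5.73 and 4.18 in Angptl2-/- replicates, against 4.85, 4.57 and 3.96 in Angptl2+/+ replicates, and its log2 fold change of 0.15 (SE 0.15) was -0.10 after GC correction. The gene shares 701 bases of its span with Atp5j, an ATP synthase subunit on the opposite strand with a mean FPKM of 24.1, so part of its fragments cannot be assigned with certainty.

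Downstream of these factors, the genes for both mitochondrial DNA factors overlapped between the genotypes. Tfam (ENSMUSG00000003923, chr10:71225464-71238280, minus strand) had an FPKM of 6.79, 6.79 and 7.89 in Angptl2-/- replicates, against 7.52, 6.30 and 7.57 in Angptl2+/+ replicates. Its means of 7.16 ± 0.636 in Angptl2-/- brains and 7.13 ± 0.717 in Angptl2+/+ brains (SD, n = 3 each) were nearly equal, with a log2 fold change of 0.01 (SE 0.12). Tfb2m (ENSMUSG00000026492, chr1:179528055-179546267, minus strand) had an FPKM of 5.34, 6.38 and 7.14 in Angptl2-/- replicates, against 4.36, 4.44 and 5.84 in Angptl2+/+ replicates. It was the member with the most positive log2 fold change, 0.36 (SE 0.16), and the overlap came from 1 pair of libraries, Angptl2-/- replicate 1 below Angptl2+/+ replicate 3. Genes of the GC content of Tfb2m had a median of 0.24, and after GC correction its log2 fold change was 0.14.

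**Figure D3:**
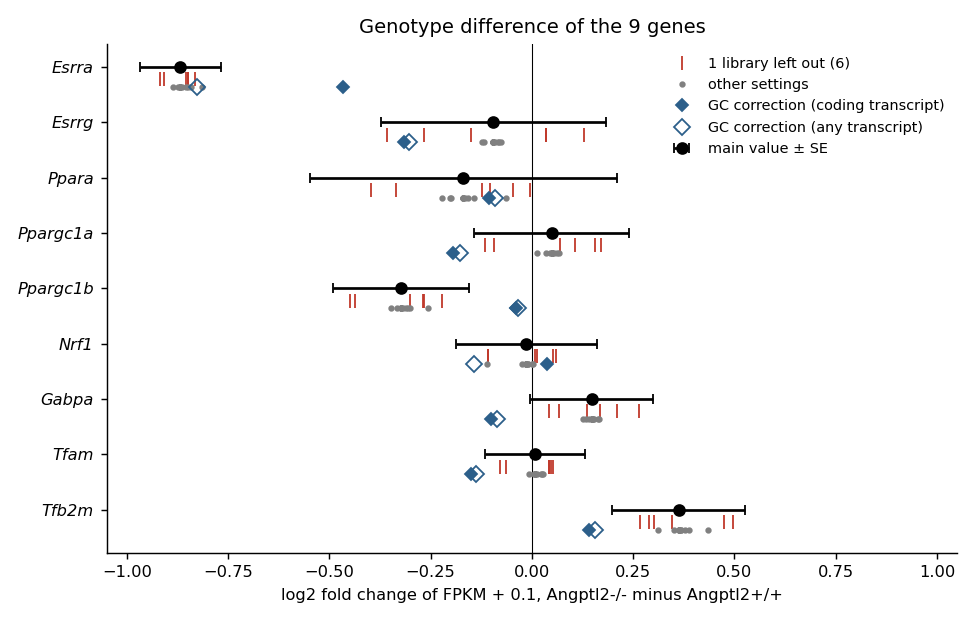
Log2 fold change of FPKM + 0.1, Angptl2-/- minus Angptl2+/+ (horizontal axis), of the 9 genes: black points are the value ± SE, red ticks the 6 settings that leave out 1 library, grey points other settings and blue diamonds the value after GC correction by the coding transcript (filled) or the longest transcript of any type (open). Esrra lies between -0.92 and -0.47 in the 20 other settings, some of which cannot change its value, and Esrrg, Ppargc1a, Nrf1, Gabpa and Tfam lie on both sides of 0.

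Because FPKM is per kilobase of exon, the levels of the 9 genes can be set against each other, but only roughly. The length covers all annotated exons of a gene, whichever transcripts are present. Differences in GC content between the genes were not removed. By mean FPKM over the 6 libraries the order was Esrra (14.7), Ppargc1a (11.1), Tfam (7.15), Esrrg (6.23), Tfb2m (5.58), Gabpa (4.72), Ppargc1b (3.39), Nrf1 (1.73) and Ppara (0.519). Within libraries, Ppargc1a was above Tfam, Ppargc1b above Nrf1, and Nrf1 above Ppara in 6 of 6 (each p = 0.0312 in an exact two-sided sign-flip test, adjusted p = 0.0833 over the 8 neighbouring pairs), which is the smallest p that 6 libraries allow. The other 5 pairs of neighbours were ordered alike in 3 to 5 of the 6 libraries, with adjusted p of 0.1 to 0.406 in the same exact test. Their order was within the spread over all 6 libraries, which holds the genotype difference too. The pairs were formed from the order of the means in these same libraries. Both the pairs and their direction thus come from the tested values, and the p-values are only a description. With the smallest p fixed by the number of libraries, the adjusted p depends on how many pairs reach it. Esrra was above Ppargc1a in 4 of 6 libraries, all 3 Angptl2+/+ brains and Angptl2-/- replicate 1.

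The ratios of FPKM within a library compare the mRNA levels of the receptor and its partners, and those with Esrra share its values. They are not corrected for GC content, which is 61.8% for Esrra, 41.7% for Ppargc1a and 57.8% for Ppargc1b. After GC correction the log2 fold changes of these genes were -0.47, -0.19 and -0.04, and the part of GC content in the ratios was not tested. The ratio of Esrra to Ppargc1a was 1.16, 0.928 and 0.741 in Angptl2-/- replicates, against 1.71, 2.26 and 1.41 in Angptl2+/+ replicates. That of Esrra to Ppargc1b was 3.98, 2.87 and 3.66 in Angptl2-/- replicates, against 6.34, 4.98 and 4.07 in Angptl2+/+ replicates. Both ratios were lower in every Angptl2-/- library. The ratio of Esrra to Esrrg, by contrast, overlapped, at 2.57, 1.59 and 1.36 in Angptl2-/- replicates, against 2.65, 4.48 and 2.35 in Angptl2+/+ replicates, with Esrrg itself variable within each genotype. Between the coactivators, the ratio of Ppargc1a to Ppargc1b overlapped as well (3.43, 3.09 and 4.94 in Angptl2-/- replicates, against 3.72, 2.21 and 2.89 in Angptl2+/+ replicates). The ratio of Tfam to Tfb2m was 1.27, 1.06 and 1.11 in Angptl2-/- replicates, against 1.73, 1.42 and 1.30 in Angptl2+/+ replicates. It was lower in every Angptl2-/- library, but narrowly, at 1.27 in Angptl2-/- replicate 1 against 1.30 in Angptl2+/+ replicate 3. After GC correction the log2 fold changes of Tfam and Tfb2m were -0.15 and 0.14. How often the ratios of other gene pairs separate was not tested.

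The genes whose profile over the 6 libraries was nearest to that of Esrra were found among 11722 protein-coding genes by the root mean square distance of their centred log2 values. They were Dexi (0.0912), Ypel3 (0.0966), Nrg2 (0.0982), Rell2 (0.109) and Pacsin3 (0.112). Dexi had an FPKM of 7.20, 6.34 and 6.08 in Angptl2-/- brains, against 11.0, 10.8 and 10.7 in Angptl2+/+ brains, and Ypel3 one of 53.6, 44.0 and 43.4 against 85.0, 75.1 and 75.3. Nrg2 encodes a neuregulin, a growth factor of the ErbB receptors, and Pacsin3 an adaptor of endocytosis. The nearest of the other 8 genes was Ppargc1b, at 0.355, farther than all 5. After GC correction the log2 fold changes of the 5 were between -0.68 for Pacsin3 and -0.26 for Nrg2. None of the 5 belongs to the mitochondrial lists below, and likeness over 6 libraries is largely likeness of the genotype difference.

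**Figure D4:**
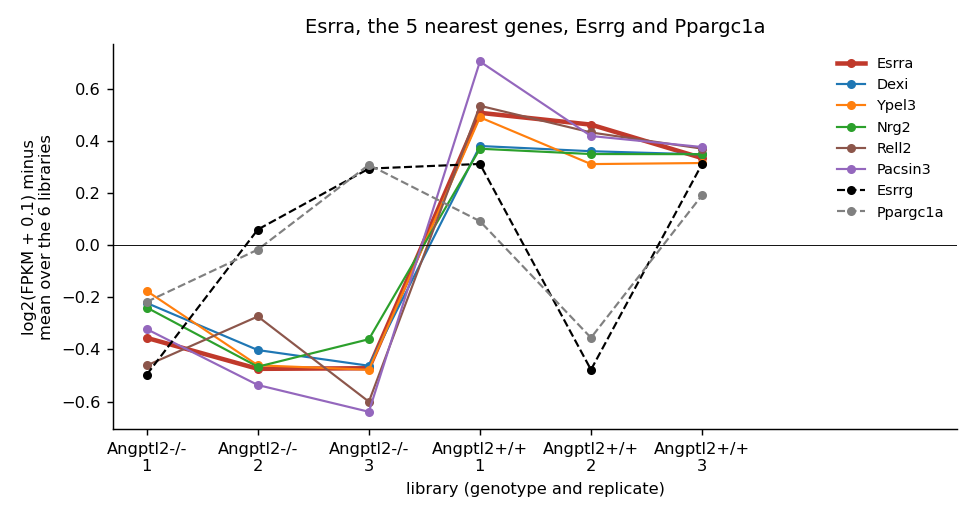
Log2(FPKM + 0.1) minus its mean over the 6 libraries (vertical axis) in each library (horizontal axis, Angptl2-/- left, Angptl2+/+ right) for Esrra (thick red), the 5 nearest genes (thin coloured lines), Esrrg (black dashes) and Ppargc1a (grey dashes). Esrra and the 5 nearest genes are below their mean in all 3 Angptl2-/- libraries and above it in all 3 Angptl2+/+ libraries, and Esrrg and Ppargc1a are on both sides of it in each genotype.

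The partners and targets of the 9 genes were followed in 7 lists of 127 genes, of which 120 were tested. With limma, 0 of the 120 passed the adjusted p of 0.05, while by an unadjusted p under 0.05 there were 9 lower genes (7.5%, against 9.12% of all genes tested) and 8 higher ones (6.67%, against 7.09%). Both shares are near those of all genes. The median log2 fold change of the lists ran from -0.29 to 0.08, beside 0.00 over all genes tested. The adjusted p-values of single list genes below are from limma, over all genes tested.

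Of the PGC-1 and ERR partners, 3 of 24 were higher and 0 were lower by the unadjusted p, with a median of 0.08. Nrip1, a corepressor of ERRα and PPARs that opposes PGC-1α in fat and muscle, had an FPKM of 6.53 ± 0.0722 in Angptl2-/- brains and 5.19 ± 0.126 in Angptl2+/+ brains (log2 fold change 0.33, adjusted p = 0.273). Sirt1, the deacetylase that activates PGC-1α, was at 3.24 ± 0.491 in Angptl2-/- brains and 2.41 ± 0.105 in Angptl2+/+ brains (0.40, adjusted p = 0.28). Mef2c, a neuronal transcription factor and the most abundant gene of the list, was at 67.6 ± 8.80 in Angptl2-/- brains and 55.7 ± 16.7 in Angptl2+/+ brains (0.31, adjusted p = 0.464). After GC correction the log2 fold changes of these genes were smaller, at 0.13 for Nrip1, 0.22 for Sirt1 and 0.04 for Mef2c.

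The other nuclear receptors lay on both sides of 0, with 2 of 11 tested genes lower and 2 higher by the unadjusted p and a median of -0.29. Ppard, the PPAR most widely expressed in brain, had an FPKM of 2.58 ± 0.481 in Angptl2-/- brains and 4.18 ± 0.438 in Angptl2+/+ brains, with a log2 fold change of -0.69 (adjusted p = 0.273) that was -0.34 after GC correction, or -0.59 by the longest transcript of any type. Rxrb, an RXR, the obligate partner of PPARs and thyroid hormone receptors, was at 12.6 ± 2.26 in Angptl2-/- brains and 18.4 ± 2.19 in Angptl2+/+ brains (-0.56, adjusted p = 0.273, and -0.16 after GC correction). Rxrg, another RXR and chosen after its values had been seen, ran the other way, at 5.29, 6.58 and 6.14 in Angptl2-/- brains, against 1.0001, 4.61 and 1.13 in Angptl2+/+ brains (1.71, adjusted p = 0.273). The striatal marker Adora2a was likewise highest in replicate 2 among the Angptl2+/+ libraries, with 6.51, 11.9 and 17.1 FPKM in Angptl2-/- brains, against 1.10, 8.44 and 1.04 in Angptl2+/+ brains, and the part of striatal tissue in the Rxrg values was not tested. Thra, the thyroid hormone receptor α and the most abundant of the list, was at 128 ± 19.4 in Angptl2-/- brains and 149 ± 17.4 in Angptl2+/+ brains (-0.22, adjusted p = 0.448), and its log2 fold change was 0.13 after GC correction.

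Of the genes for mitochondrial DNA transcription and replication, 0 of 18 reached an unadjusted p under 0.05 in either direction, with a median of 0.05. Polrmt, the RNA polymerase that TFB2M and TFAM serve, had an FPKM of 4.69 ± 0.196 in Angptl2-/- brains and 5.62 ± 0.410 in Angptl2+/+ brains (-0.25, adjusted p = 0.313, with the sign turned to 0.13 after GC correction). Lrpprc, which stabilises mitochondrial mRNAs, was at 12.1 ± 0.855 in Angptl2-/- brains and 10.3 ± 0.386 in Angptl2+/+ brains (0.23, adjusted p = 0.317, and 0.15 after GC correction).

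Of the classic target classes of ERRα, the TCA cycle and fatty acid oxidation lists had medians near that of all genes. The subunit genes of the respiratory chain complexes, also classic targets, are in none of the lists. In the list of the TCA cycle and cytochrome c, 1 of 17 genes was lower and 0 were higher by the unadjusted p, with a median of -0.05. That gene was Idh3b, a subunit of isocitrate dehydrogenase, at 41.4 ± 0.491 FPKM in Angptl2-/- brains and 49.6 ± 4.53 in Angptl2+/+ brains (-0.26, adjusted p = 0.289). Of the fatty acid oxidation and ketogenesis genes, 0 of 22 reached an unadjusted p under 0.05, with a median of -0.08. Acadvl, the first enzyme of the mitochondrial spiral for very long chains, was at 6.12 ± 0.286 in Angptl2-/- brains and 7.23 ± 0.902 in Angptl2+/+ brains (-0.23, adjusted p = 0.393, and -0.10 after GC correction).

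Of the import, chaperone and protease genes, 4 of 18 were lower and 1 was higher by the unadjusted p, with a median of -0.09. Tomm40, the channel of the outer membrane, had an FPKM of 8.95 ± 1.06 in Angptl2-/- brains and 13.6 ± 1.10 in Angptl2+/+ brains (-0.60, adjusted p = 0.273, and -0.21 after GC correction, or -0.45 by the longest transcript of any type). Clpp, a matrix protease, was at 14.7 ± 2.02 in Angptl2-/- brains and 20.9 ± 2.82 in Angptl2+/+ brains (-0.50, adjusted p = 0.273, and -0.22 after GC correction). Tomm20, the import receptor, lay on the other side, at 69.1 ± 12.3 in Angptl2-/- brains and 55.3 ± 0.846 in Angptl2+/+ brains (0.31, adjusted p = 0.32, and 0.15 after GC correction).

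Of the fusion and fission genes, 2 of 10 were lower and 2 higher by the unadjusted p, with a median of -0.08. Dnm1l, the GTPase that divides mitochondria, was at 61.8 ± 11.3 FPKM in Angptl2-/- brains and 46.2 ± 5.21 in Angptl2+/+ brains (0.41, adjusted p = 0.287). Mief2, an adaptor that recruits it, was at 4.84 ± 0.795 in Angptl2-/- brains and 6.54 ± 0.624 in Angptl2+/+ brains (-0.44, adjusted p = 0.277). Yme1l1, a protease of the inner membrane that cuts OPA1, was at 12.5 ± 1.56 in Angptl2-/- brains and 9.29 ± 0.289 in Angptl2+/+ brains (0.41, adjusted p = 0.273). GC correction brought all 3 closer to 0, to 0.15 for Dnm1l, -0.16 for Mief2 and 0.07 for Yme1l1.

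**Figure D5:**
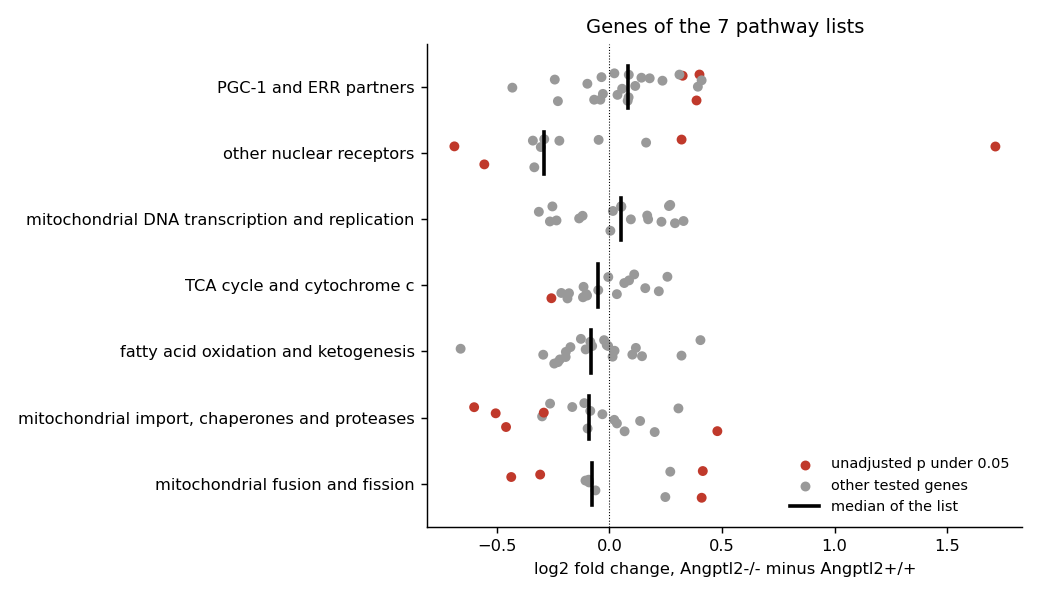
Log2 fold change, Angptl2-/- minus Angptl2+/+ (horizontal axis), of each tested gene of the 7 pathway lists (vertical axis); red points have an unadjusted p under 0.05 in limma, grey points do not, and the black bar is the median of the list. The medians lie between -0.29 and 0.08, and red points are on both sides of 0 in the lists of other nuclear receptors, of import, chaperones and proteases, and of fusion and fission.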

How the data were processed

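Brain RNA was sequenced on an Illumina HiSeq instrument as read pairs, and the authors deposited a table with the FPKM of each gene in each library. Bowtie 0.12.2 and the build mm8 are named in the processing notes of the submitters. The counting tool, its strand setting and its annotation are not given in these sources. Gene identifiers (54532) were looked up in GENCODE M21 (GRCm38), where 54495 were found, and exon lengths were taken from it. FPKM times exon length came out as whole fragments (tolerance 0.05) for 96.6 to 96.8% of values above 0, and this gave the depth of each library. Genotypes were compared by limma 3.58.1 (R 4.3.3, empirical Bayes with an intensity trend, two-sided) on log2(FPKM + 0.1), Angptl2-/- minus Angptl2+/+, in all genes whose FPKM averaged at least 0.5. P-values were adjusted by Benjamini-Hochberg over all genes tested, with a threshold of 0.05. A pseudocount understates the change of low genes.

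The 9 genes, the lists and the motifs were chosen with earlier results of these data known. The named genes were the 9, Angptl2, for each list the most abundant gene and the 2 tested genes of smallest p, the 5 genes nearest to Esrra and the 1 nearest to each other member. Of these, 2 list genes are not reported here. Alternatives were other pseudocounts (0.01 and 1), filters and scalings, voom, a replicate block, loess corrections (span 0.3) for GC content and length, and leaving out each library. GC correction by the longest transcript of any type, and GC correction of the Esrra neighbours, were added after seeing the data. Gene levels were compared with exact sign-flip tests over libraries. How large a difference the fit could find at the spread between these libraries was not tested. Other steps used Python 3.11.15 with numpy 2.4.6 and pandas 2.3.3, and figures were drawn with matplotlib 3.10.9.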

Additional observations from a re-analysis of the deposited data

How the results depend on the processing

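The log2 fold change of Esrra was negative under all 20 alternatives, but part of this was fixed in advance. Other filters and other forms of the empirical Bayes step leave the value as it is by construction. Leaving out 1 library cannot turn the sign of a gene whose genotypes are separated, and it gave values between -0.92 and -0.83. With GC correction the value was -0.47. Of the 9 genes, GC correction also moved Ppargc1b (-0.04), Gabpa (-0.10), Tfam (-0.15) and Tfb2m (0.14) by more than the spread between libraries. The count of genes past an adjusted p of 0.05 was 0 by limma and 0 to 1 when a library was left out. The 1 gene was Gapdh, called without Angptl2+/+ replicate 1. With the replicate number as a block the count was 1 (Ttr), but the numbers share only a name, since the correlations of same-numbered libraries were 0.037, -0.069 and 0.162. With 1 library of each genotype per number, the block cannot change a log2 fold change, and that of Esrra was again -0.87. At an unadjusted p under 0.05, leaving out 1 library gave 465 to 1373 higher and 790 to 1656 lower genes, and GC correction 474 higher and 468 lower (505 and 516 by the longest transcript of any type).

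The median of the other nuclear receptors was -0.081 with GC correction (-0.075 by the longest transcript of any type) and between -0.37 and -0.049 without 1 library. That of the mitochondrial DNA list was 0.14 with length correction and between -0.035 and 0.14 without 1 library. That of the TCA cycle list was between -0.086 and 0.0090 without 1 library, and that of the import list was -0.019 with GC and -0.026 with length correction. Of the 19 named list genes, 3 took the other sign with GC correction: Thra and Polrmt (both 0.13, and 0.13 and 0.12 by the longest transcript of any type) and Acaa1a (0.12, but -0.019 by the longest transcript of any type). The cause of these shifts was not tested. No pair in the order of levels passed the adjusted threshold under any of its alternatives. With 5 libraries the exact test cannot go below 0.0625. With 3 libraries a genotype, a gene as low as Ppara is limited by its counts.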

Other observations

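Each of the other 8 genes had its own nearest gene over the 6 libraries, by the same distance of centred log2 values. They were Mbd4 for Esrrg (0.0857), Hira for Ppara (0.0925), Chmp1b for Ppargc1a (0.0336), Robo4 for Ppargc1b (0.0577), Mkrn2 for Nrf1 (0.0536), Cobll1 for Gabpa (0.0457), Yrdc for Tfam (0.0255) and Rsf1 for Tfb2m (0.0142). Within the set of 9, the nearest pair was Tfam and Ppargc1a, at 0.126. These distances are a description over 6 libraries, with no test.

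Among the fatty acid genes named by the rule, Acaa1a, a peroxisomal thiolase, had an FPKM of 10.7 ± 0.188 in Angptl2-/- brains and 12.5 ± 0.724 in Angptl2+/+ brains (log2 fold change -0.22, adjusted p = 0.316 in limma), and its log2 fold change was 0.12 after GC correction, or -0.019 by the longest transcript of any type.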
